A study of Homo sapiens with 22 samples.

Results

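The 58 genes described here are homeobox genes that lie outside the HOX clusters and act in embryonic development. They are given by name: 32 of the NK-like class, 8 of the HOX-like class, 10 of the LIM class, 3 genes of the sine oculis type (SIX2, SIX3 and SIX6) and 5 IRX genes, out of 19974 protein-coding genes on chromosomes 1 to 22 and X. Their marks were read from CUT&RUN, in which an antibody directs a nuclease to chromatin and the fragments it releases are sequenced, in A673 and CHLA10, both established lines of Ewing sarcoma, a tumour of bone and soft tissue driven by a fusion of EWS with an ETS factor. The series title names EWS-FLI1 and HOXD13 as controls of tumour cell plasticity. Each line had 2 libraries for each of H3K4me3, H3K27me3, H3K27ac and H3K4me1 in cells labelled shNS, and 1 library for the transcription factor HOXD13 in cells without that label. The lines were grown in different media, so line and medium cannot be told apart. The labels do not say whether the 2 libraries of a mark are separate cultures, so agreement between them may be technical.

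Homeobox genes encode transcription factors with a DNA-binding homeodomain, and in the embryo each marks out a region, germ layer or cell lineage. In stem cells many of them are bivalent: their starts carry H3K4me3, laid down by trithorax-type methyltransferases at active or poised promoters, together with H3K27me3, laid down by the Polycomb complex with EZH2 and kept over silent developmental genes. H3K27ac lies at active promoters and enhancers and H3K4me1 at enhancers. A gene that is switched on in a lineage typically loses H3K27me3, and one that is silenced for good often loses H3K4me3.

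A gene was called marked in a library when a deposited peak overlapped, by at least 1 bp, the 1 kb on either side of one of its annotated boundaries. It was called bivalent in a line when both libraries of H3K4me3 and both of H3K27me3 gave such a peak. The peaks of the marks could lie at different ends of the gene and did not have to overlap each other. Genes whose libraries of a mark disagreed were counted apart as split. The lists hold no read counts, so the depth behind a peak is unknown. With 2 libraries against 2, the 3 possible splits allow no exact permutation p below 0.33, so differences between lines are given as calls that both libraries of a line share. Both marks in a bulk culture may come from different cells or alleles, and this was not tested.

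The labels were checked on genes of known behaviour. All 6 genes used by every cell (among them ACTB and GAPDH) carried H3K4me3 without H3K27me3 in both lines (all genes 57.0 and 59.3%). All 10 genes known as induced by EWS-FLI1 carried H3K4me3 in both libraries of both lines (all genes 64.3% in A673 and 63.9% in CHLA10). Of those 10, 9 had H3K4me3 only in each line; NKX2-2 was bivalent in CHLA10, and 1 gene had H3K27me3 in 1 A673 library. The 16 histone lists held 17909 to 106770 peaks. Both libraries called H3K27ac at 2 of the 6 genes used by every cell in A673 and at 5 in CHLA10. At the 10 genes induced by EWS-FLI1 the numbers were 1 in A673 and 2 in CHLA10. A missing H3K27ac call therefore does not mark a gene as inactive. H3K27ac repeated poorly in A673, where 28.6% of the members with a peak in either library had it in both, against 71.4% in CHLA10. For H3K27me3 the same share was 87.8% in A673 and 75.7% in CHLA10, and for H3K4me3 it was 93.5% and 89.7%. Of the A673 H3K27ac calls at members, 8 were in replicate 1 and 10 in replicate 2. NKX2-4, BARX1, BARX2 and LBX2 had one in replicate 1 alone, and HMX3, NKX2-3, BARHL2, DLX1, DLX2 and IRX3 in replicate 2 alone. Peaks behind a call in both libraries did not overlap each other for 1 of 43 A673 H3K4me3 calls (IRX4), 1 of 28 CHLA10 H3K27me3 calls (LMX1B), 3 of 4 A673 H3K27ac calls (NKX2-1, TLX1 and VAX1) and 2 of 9 A673 H3K4me1 calls (HMX3 and EN1).

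Bivalent chromatin was the most frequent state of these genes in A673. There 28 of 58 members (48.3%) were bivalent, against 5.62% of all protein-coding genes. In CHLA10 the number was 15 members (25.9%), against 3.0% of all genes. The members were chosen with earlier results of these data known, so the contrasts with all genes here and below are a description. With the lower-ranked 50% of peaks by q left out, 8 members were bivalent and 25 had H3K27me3 without H3K4me3 in A673 (3 and 23 in CHLA10), so the most frequent state depends on how many weak peaks are kept. H3K27me3 without H3K4me3 was found at 6 members in A673 (all genes 5.63%) and at 11 in CHLA10 (all genes 7.19%). H3K4me3 without H3K27me3, the state of most coding genes, was found at 11 members in A673 (19.0%; all genes 57.0%) and at 16 in CHLA10 (27.6%; all genes 59.3%). Neither mark was called at 5 members in A673 (all genes 25.6%) and at 4 in CHLA10 (all genes 23.6%). The libraries disagreed for 8 members in A673 (all genes 6.2%) and for 12 in CHLA10 (all genes 6.94%). Of the 28 members bivalent in A673, 13 were bivalent in CHLA10, 5 had H3K27me3 only, 5 had H3K4me3 only and 5 were split. Over all genes these counts were 368, 85, 408 and 241 of 1122.

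**Figure D1:**
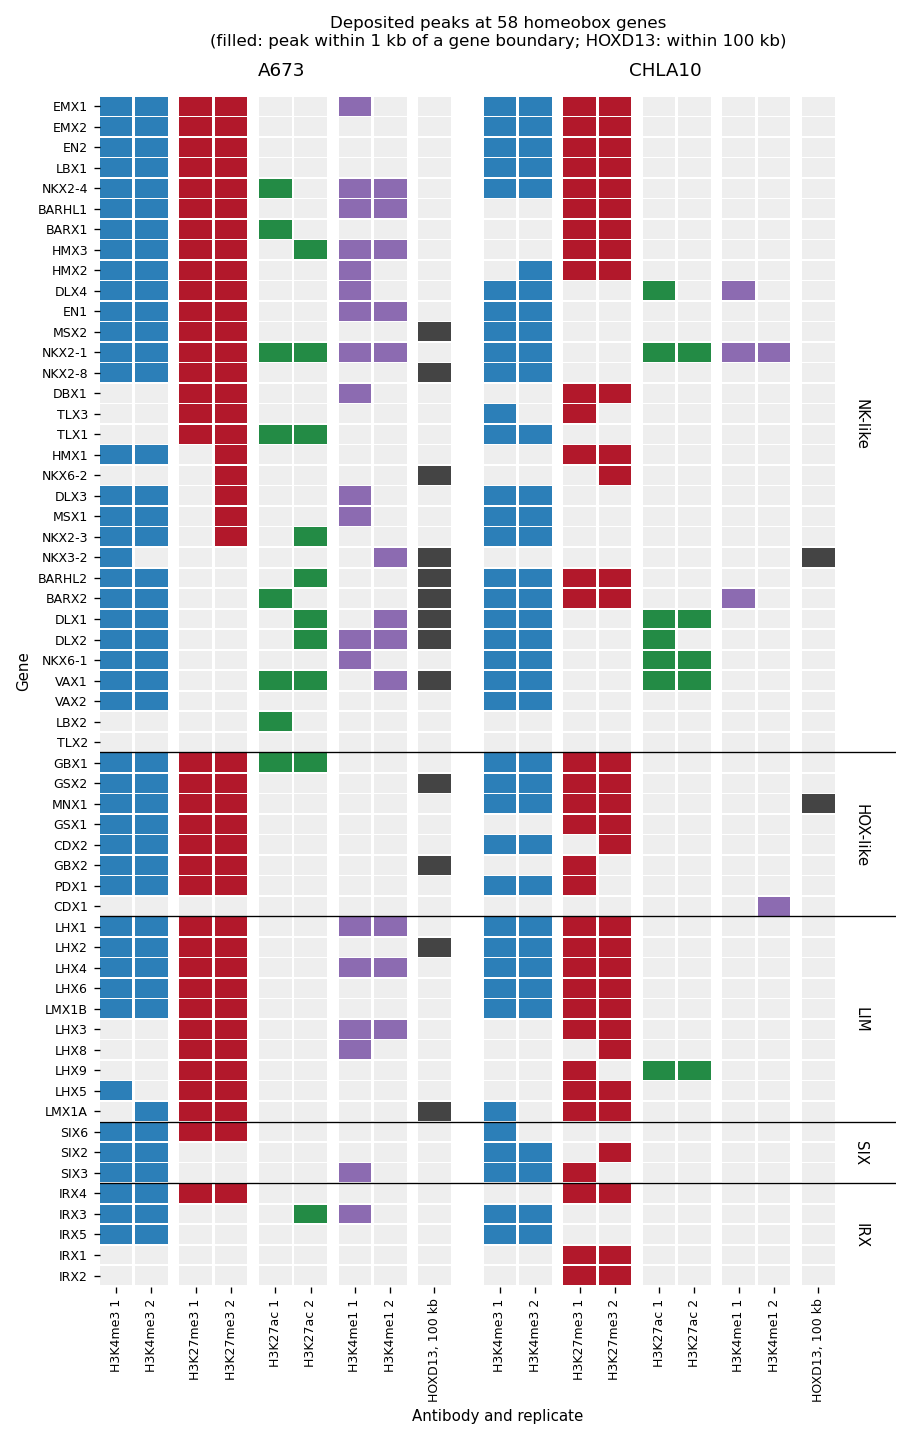
Peak calls at each of the 58 genes (rows, grouped by class) in each library (columns, A673 on the left and CHLA10 on the right); a filled cell is a peak within 1 kb of a gene boundary, or for HOXD13 within 100 kb of the gene. Red H3K27me3 cells run through all 10 LIM genes in A673, whereas H3K27ac and H3K4me1 cells are scattered.

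**Figure D2:**
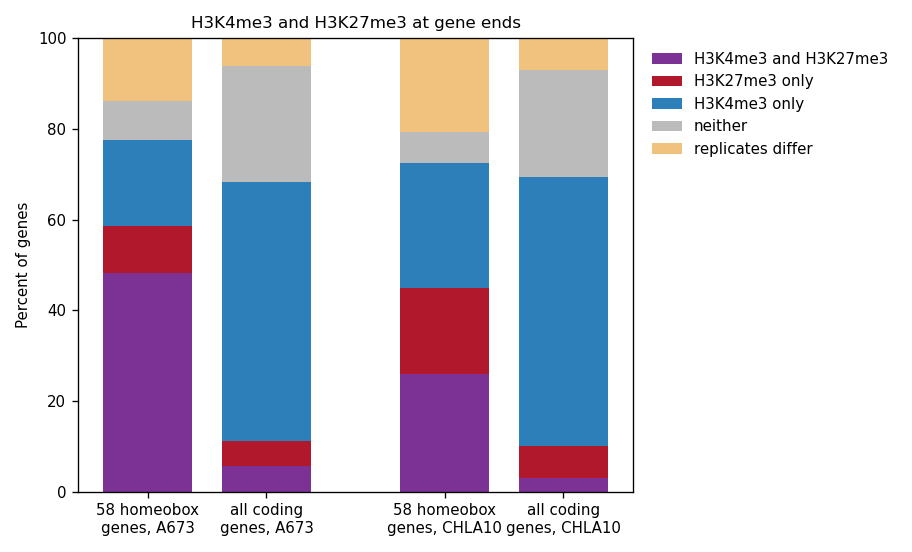
Percent of genes (vertical axis) in each H3K4me3 and H3K27me3 state, for the 58 homeobox genes and for all coding genes in A673 (left pair) and in CHLA10 (right pair). The share with both marks is 48.3% of the homeobox genes in A673 and 25.9% in CHLA10.

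The single marks differed from the background in H3K27me3 far more than in H3K4me3. Both A673 libraries called H3K27me3 at 36 members (62.1%; all genes 11.8%), and both CHLA10 libraries at 28 (48.3%; all genes 10.9%). H3K4me3 was called in both A673 libraries at 43 members (74.1%; all genes 64.3%) and in both CHLA10 libraries at 35 (60.3%; all genes 63.9%). In all 4 libraries, H3K27me3 was present at 23 members (39.7%), against 6.38% of all genes, while H3K4me3 was present at 34 (58.6%), against 61.2% of all genes.

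H3K27me3 also lay over these genes in longer blocks. The longest H3K27me3 peak at a marked member had a median length of 14.4 and 18.2 kb in the A673 libraries, against 6.06 and 7.48 kb over all marked genes. In CHLA10 the medians were 13.8 and 11.9 kb at members, against 5.95 and 5.82 kb over all marked genes. At least 50% of the gene and its flanks lay under H3K27me3 peaks for 28 and 34 members in the A673 libraries and for 24 and 19 in the CHLA10 libraries, where all genes gave 3.41, 4.80, 5.38 and 5.19% in the same order. Ranked by the authors' −log10 q within each library's own list, the members' H3K27me3 peaks had median percentiles of 98.5 and 98.9 in A673, against 81.8 and 82.2 for all marked genes, and 93.2 and 91.7 in CHLA10, against 76.8 and 77.2. Members are short, with a median length of 6.31 kb against 24.2 kb for all genes, so a peak of a given length covers more of a member.

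H3K4me3 at the bivalent members was weaker and shorter than at members with H3K4me3 alone. In A673 the bivalent members' H3K4me3 peaks ranked at median percentiles of 40.3 and 43.1, against 67.1 and 78.8 for the 11 members with H3K4me3 only. In CHLA10 the percentiles were 34.7 and 33.0 for bivalent members, against 71.4 and 72.2 for the 16 with H3K4me3 only. All bivalent genes ranked at 35.0 and 37.0 in A673 and at 38.0 and 37.0 in CHLA10, so bivalent genes at large had low ranks too.

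The states are given by class, and the smaller classes hold few genes. Of the NK-like genes, which pattern the nervous system, head, limb and gut, 14 of 32 were bivalent in A673 and 7 in CHLA10. Of the HOX-like genes, which act in the neural tube, pancreas and intestine, 7 of 8 were bivalent in A673 and 3 in CHLA10. GSX1, PDX1 and CDX2, bivalent in A673 and not in CHLA10, form one cluster on chromosome 13, so they are not independent examples. The LIM genes, which specify neurons, pituitary, kidney, limb and gonad, held H3K27me3 most evenly: all 10 had it in both A673 libraries and 8 in both CHLA10 libraries, none was called with H3K4me3 alone, and 5 were bivalent in each line. Of the 3 sine oculis-type genes, which act in eye, forebrain and kidney, SIX6 was bivalent in A673 and all 3 were split in CHLA10. The 5 IRX genes held 1 bivalent member in A673 and none in CHLA10.

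Of the 58 members, 40 had a clear state in both lines. It was the same in 25 of them and differed in 15, which is 25.9% of all members, against 9.44% of all genes. Over the genes with a clear state in both lines, the share that differed was 37.5% of members and 10.7% of all genes. Genes with H3K4me3 alone or with neither mark make up most of the background, and few members are in those states, so the 2 shares compare unlike mixtures of states.

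Bivalent in both lines were 13 members (22.4%; all genes 1.84%), which is 13 of the 28 bivalent in A673, against 368 of 1122 over all genes. They are the cortex genes EMX1 and EMX2, the midbrain and cerebellum gene EN2, the muscle and spinal cord gene LBX1, the motor neuron and pancreas gene MNX1, the forebrain gene GSX2, NKX2-4, GBX1, and the LIM genes LHX1 (kidney and head), LHX2 (forebrain and eye), LHX4 (pituitary), LHX6 (cortical interneurons) and LMX1B (dorsal limb and kidney). The NKX2-4 call rests on weak H3K27me3 peaks in CHLA10 (−log10 q 2.15 and 2.69). In replicate 2 that peak did not overlap the H3K4me3 peak. LBX1 had H3K27me3 over its whole 4.47-kb region in all 4 libraries. EMX2 had 8.80 kb of its region under H3K27me3 in each A673 library, against 7.09 and 7.25 kb in CHLA10. LMX1B had the most covered bases of the 13, with 58.3 and 62.9 kb in A673, against 54.5 and 43.8 kb in CHLA10, where its H3K27me3 call rests on a different boundary in each library. The H3K4me3 peaks of these genes were narrow beside those blocks; EN2 had 2.60 and 3.0 kb under H3K4me3 in A673, against 0.38 and 0.37 kb in CHLA10.

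H3K27me3 was called in A673 only at 7 members (12.1%; all genes 3.86%) and in CHLA10 only at 4 (6.90%; all genes 3.01%). The 7 are NKX2-1, NKX2-8, EN1, MSX2, DLX4, SIX6 and TLX1. The first 5 were bivalent in A673 and had H3K4me3 only in CHLA10. NKX2-1, the master gene of thyroid, lung and ventral forebrain, lay under H3K27me3 over its whole 5.84-kb region in both A673 libraries, against 0 kb in both CHLA10 libraries. Its A673 peaks were 56.0 and 69.7 kb long, the longest of any member, and the nearest CHLA10 peaks were 53.2 and 52.04 kb from the gene. Its H3K4me3 hardly differed, with 2.32 and 1.99 kb covered in A673, against 2.33 and 2.40 kb in CHLA10. NKX2-8, its paralogue 59.8 kb away, had 2.23 and 4.08 kb under H3K27me3 in A673, against 0 and 0 kb in CHLA10. The nearest CHLA10 H3K27me3 peaks lay 3.33 and 5.71 kb from NKX2-8. As neighbours, the 2 genes are not independent examples.

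MSX2, a BMP-responsive gene of skull, limb and tooth mesenchyme, had 5.86 and 7.0 kb under H3K27me3 in A673, against 0 and 0 kb in CHLA10. Its H3K4me3 covered 3.10 and 2.39 kb in A673, against 2.43 and 2.49 kb in CHLA10. EN1, a gene of midbrain, hindbrain and ventral limb, had 1.40 and 5.09 kb under H3K27me3 in A673, against 0 and 0 kb in CHLA10. DLX4, a gene of placenta and face, had 7.36 and 7.47 kb, against 0 and 0 kb. SIX6, an eye and pituitary gene, had its whole 5.71-kb region under H3K27me3 in A673, against 0 and 0 kb in CHLA10, and was split there because H3K4me3 was called in 1 CHLA10 library of 2. Within 1 kb of a boundary of these genes, every A673 library had the mark and no CHLA10 library did.

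TLX1, needed for the spleen and an oncogene of T-cell leukaemia, was the one member with H3K27me3 and no H3K4me3 in A673 and the reverse in CHLA10. It had 0 and 0 kb under H3K4me3 in A673, against 1.22 and 1.28 kb in CHLA10. Under H3K27me3 it had 3.08 and 5.74 kb in A673, against 0 and 0 kb in CHLA10. The nearest CHLA10 H3K27me3 peaks lay 2.87 and 3.46 kb from TLX1, so the mark was still called close to the gene. It was also the 1 member with H3K4me3 in CHLA10 only (1.72%; all genes 1.98%).

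The 4 members with H3K27me3 in CHLA10 only are BARHL2, BARX2, IRX1 and IRX2. BARHL2, a gene of retinal and spinal interneurons, had 0 and 0 kb under H3K27me3 in A673, against 6.61 and 6.83 kb in CHLA10. Its H3K4me3 covered all 7.76 kb of its region in both A673 libraries, against 3.33 and 3.65 kb in CHLA10. BARX2, a gene of muscle and epithelial organs, had 0 and 0 kb under H3K27me3 in A673, against 7.55 and 4.02 kb in CHLA10, and 4.75 and 3.65 kb under H3K4me3 in A673, against 2.68 and 2.01 kb in CHLA10. Both were H3K4me3 only in A673 and bivalent in CHLA10, and both had broader H3K4me3 in A673, where H3K27me3 was not called. Over the whole lists, H3K4me3 peaks had median lengths of 1945 and 1809 bp in A673, against 1487 and 1537 bp in CHLA10. The part of this in the 2 genes was not tested.

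IRX1 and IRX2, neighbours in an IRX gene cluster that patterns neural tissue, heart and lung, had no peak of H3K4me3 or H3K27me3 in A673. IRX2 had 10.6 and 12.2 kb under H3K27me3 in CHLA10, and IRX1 had 5.76 and 2.92 kb. In A673, IRX2 lay in a stretch of 914 kb and IRX1 in one of 876 kb in which none of the 9 lists held a peak. IRX4, in the same cluster and a gene of the heart ventricle, did have A673 peaks. Whether the DNA of these stretches is present in A673 was not tested.

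**Figure D3:**
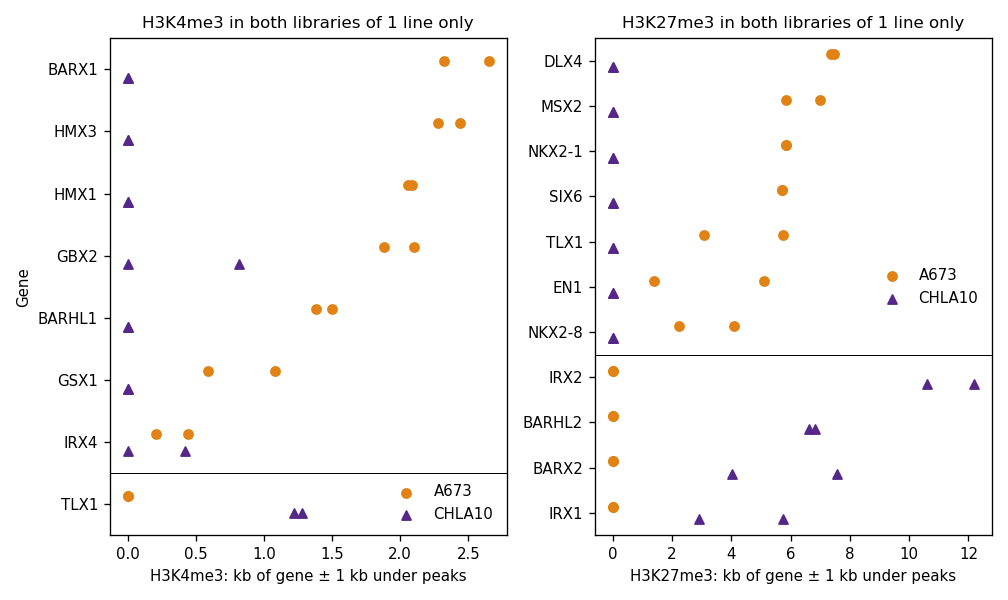
Kilobases of each gene and its 1-kb flanks under H3K4me3 (left panel) and H3K27me3 (right panel) peaks, for genes called in both libraries of 1 line only; each point is 1 library (circles A673, triangles CHLA10) and the horizontal rule parts genes called in A673 only (above) from those called in CHLA10 only (below). For H3K27me3 the 7 upper genes have 1.40 to 7.47 kb in A673 and 0 kb in CHLA10.

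H3K4me3 was called in A673 only at 7 members (12.1%; all genes 1.96%): HMX1, HMX3, GBX2, BARX1, GSX1, BARHL1 and IRX4. HMX3, BARX1, GSX1, BARHL1 and IRX4 were bivalent in A673 and had H3K27me3 only in CHLA10. HMX3, a gene of the inner ear, had 2.44 and 2.28 kb under H3K4me3 in A673, against 0 and 0 kb in CHLA10, while its H3K27me3 covered 3.54 and 4.14 kb in A673, against 5.45 and 5.45 kb in CHLA10. BARX1, a gene of stomach and tooth mesenchyme, had 2.32 and 2.65 kb under H3K4me3, against 0 and 0 kb. BARHL1, a gene of cerebellum and inner ear, had 1.5 and 1.38 kb, against 0 and 0 kb. GSX1, a gene of brain progenitors, had 1.08 and 0.59 kb, against 0 and 0 kb. HMX1, an eye and ear gene, had 2.06 and 2.09 kb, against 0 and 0 kb, and its H3K27me3 was called in 1 A673 library and in both CHLA10 libraries. H3K27me3 still covered 12.05 and 15.94 kb of the HMX1 region in A673, against 25.47 and 26.57 kb in CHLA10. In the uncalled A673 library it lay inside the gene, beyond 1 kb of a boundary. Each of these 5 genes had H3K27me3 in both CHLA10 libraries.

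GBX2 and IRX4 were less clear. GBX2, which sets the front of the hindbrain, had 2.10 and 1.88 kb under H3K4me3 in A673, against 0.82 and 0 kb in CHLA10, where the 1 peak lay inside the gene beyond 1 kb of a boundary. It had 5.83 and 5.04 kb under H3K27me3 in A673, against 1.18 and 0 kb in CHLA10. IRX4 had 0.44 and 0.21 kb under H3K4me3 in A673, against 0 and 0.42 kb in CHLA10. Within 1 kb of a transcription start, IRX4 had H3K4me3 in 1 library of each line, so its difference rests on the gene's other boundary.

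The sequences before the start of 6 of these genes are shown because each stands for a pattern of marks. GBX2 was bivalent in A673 and split in CHLA10. MSX2 and BARHL2 had H3K4me3 in both lines, with H3K27me3 in A673 only at MSX2 and in CHLA10 only at BARHL2. TLX1 had H3K27me3 without H3K4me3 in A673 and the reverse in CHLA10. IRX2 had H3K27me3 in CHLA10 only, and VAX1 had H3K4me3 without H3K27me3 in both lines. Each sequence is the 250 bases before the annotated start in RefSeq (GRCh38.p14), on the gene's strand and outside its annotated boundaries, with every CG pair in capitals. The positions are chr2:236168387-236168636 (minus strand) for GBX2, chr5:174724332-174724581 (plus) for MSX2, chr1:90717303-90717552 (minus) for BARHL2, chr10:101131050-101131299 (plus) for TLX1, chr5:2751678-2751927 (minus) for IRX2 and chr10:117138271-117138520 (minus) for VAX1.
GBX2: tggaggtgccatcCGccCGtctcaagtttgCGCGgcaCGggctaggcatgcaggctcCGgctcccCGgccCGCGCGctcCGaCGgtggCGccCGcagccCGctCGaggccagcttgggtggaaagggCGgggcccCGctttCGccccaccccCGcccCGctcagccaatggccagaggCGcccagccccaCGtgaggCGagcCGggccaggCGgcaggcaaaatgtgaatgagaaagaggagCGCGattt
MSX2: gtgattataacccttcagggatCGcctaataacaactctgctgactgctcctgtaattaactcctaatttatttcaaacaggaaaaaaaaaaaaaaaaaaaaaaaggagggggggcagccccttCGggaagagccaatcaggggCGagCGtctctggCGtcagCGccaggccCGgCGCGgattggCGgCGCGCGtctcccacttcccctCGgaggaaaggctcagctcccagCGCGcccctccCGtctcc
BARHL2: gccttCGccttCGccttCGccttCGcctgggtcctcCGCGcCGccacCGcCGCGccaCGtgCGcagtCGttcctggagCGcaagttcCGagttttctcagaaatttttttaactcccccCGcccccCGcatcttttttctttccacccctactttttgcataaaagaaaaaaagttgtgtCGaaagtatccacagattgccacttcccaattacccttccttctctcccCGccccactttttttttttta
TLX1: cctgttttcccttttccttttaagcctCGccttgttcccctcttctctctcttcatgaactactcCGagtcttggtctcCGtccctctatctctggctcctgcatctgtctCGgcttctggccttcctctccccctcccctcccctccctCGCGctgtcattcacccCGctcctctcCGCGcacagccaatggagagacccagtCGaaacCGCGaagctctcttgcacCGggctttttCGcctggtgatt
IRX2: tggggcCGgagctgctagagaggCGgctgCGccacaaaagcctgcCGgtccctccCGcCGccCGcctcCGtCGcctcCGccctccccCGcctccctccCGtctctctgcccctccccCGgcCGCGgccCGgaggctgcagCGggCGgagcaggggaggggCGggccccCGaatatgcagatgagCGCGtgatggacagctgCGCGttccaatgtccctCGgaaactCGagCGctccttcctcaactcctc
VAX1: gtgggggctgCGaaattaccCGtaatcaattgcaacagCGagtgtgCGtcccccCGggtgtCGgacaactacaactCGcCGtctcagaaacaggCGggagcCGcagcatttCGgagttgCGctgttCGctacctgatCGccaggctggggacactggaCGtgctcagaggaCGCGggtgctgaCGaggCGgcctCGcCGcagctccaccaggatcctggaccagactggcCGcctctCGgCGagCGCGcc

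The stretch before GBX2 holds 28 CG pairs at 72% G and C, and all 250 bases lay under H3K4me3 and H3K27me3 peaks in both A673 libraries. In CHLA10 the same bases lay under H3K27me3 in 1 library and under H3K4me3 in neither. The MSX2 stretch, with 17 CG pairs, lay wholly under H3K4me3 in all 4 libraries and under H3K27me3 in both A673 libraries only. The TLX1 stretch, with 14 CG pairs, lay wholly under H3K27me3 in both A673 libraries, against 237 and 250 bases under H3K4me3 in CHLA10. At BARHL2 (19 CG pairs) and IRX2 (27 CG pairs), 0 of these bases lay under H3K27me3 in either CHLA10 library, although both genes were called with it. The VAX1 stretch, with 26 CG pairs, lay under H3K4me3 in all 4 libraries, and 155 and 0 of its bases lay under H3K27ac in A673, against 250 and 250 in CHLA10.

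Dense CG pairs are a general feature of these genes. Of the 58 members, 42 had an entry in the promoter table; NKX6-2, EMX1, EN1, BARX1, BARX2, LBX1, PDX1, CDX1, DLX3, DLX4, VAX2, LHX1, LHX5, SIX3, IRX3 and IRX5 had none there. In the 300 bases from 250 before to 50 after the start, the median share of G and C was 67.7% in members and 62.7% over 15812 genes. The ratio of observed to expected CG pairs had a median of 0.848 in members and 0.762 over all genes. A share of G and C over 50% together with a ratio over 0.6 was met by 40 of 42 members (95.2%) and by 63.0% of all genes.

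**Figure D4:**
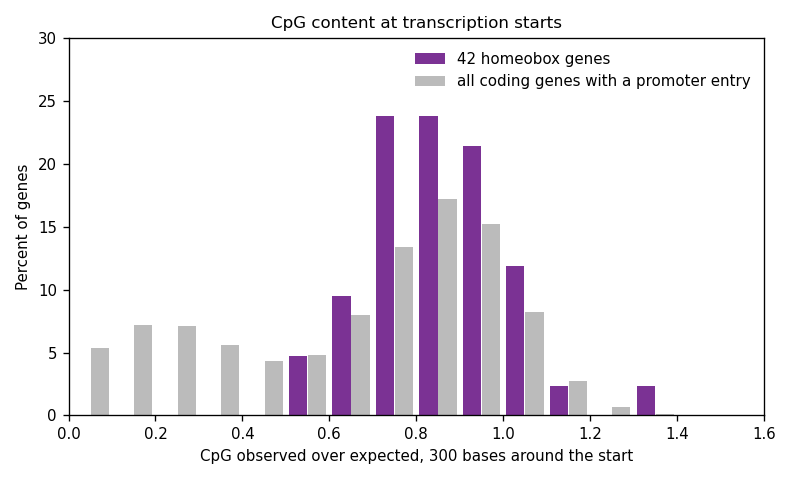
Percent of genes (vertical axis) by the ratio of observed to expected CG pairs in the 300 bases around the start (horizontal axis, bins of 0.1), for 42 homeobox genes (purple) and all coding genes with an entry (grey). No homeobox gene falls below 0.5, where the grey bars hold a second hump.

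H3K27ac was called at a share of members near that of all genes in A673 and at a lower share in CHLA10. It was called in both A673 libraries at 4 members (6.90%; all genes 7.68%) and in both CHLA10 libraries at 5 (8.62%; all genes 17.7%). In the single A673 libraries the shares were 13.8 and 17.2% of members, against 17.1 and 18.7% of all genes, so the A673 count is 8 or 10 when 1 library is left out. In all, 41 members (70.7%) had it in none of the 4 libraries, against 52.8% of all genes. VAX1 and NKX2-1 had it in all 4. VAX1, a gene of optic stalk and ventral forebrain, had 2.63 and 3.47 kb under H3K27ac in A673, against 2.29 and 4.70 kb in CHLA10, with no H3K27me3 at either boundary in any library. Its longest H3K4me3 peaks were 8.63 and 8.49 kb in A673, against 6.74 and 7.38 kb in CHLA10. NKX2-1 had 0.28 and 1.19 kb under H3K27ac in A673, against 1.27 and 1.14 kb in CHLA10, at the boundary away from its start. Another annotated gene overlaps NKX2-1 there, so the peak cannot be given to NKX2-1 alone.

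H3K27ac in A673 only was called at TLX1 and GBX1 (3.45%; all genes 2.23%), and in CHLA10 only at NKX6-1 and LHX9 (3.45%; all genes 8.4%). TLX1 had 0.39 and 0.49 kb in A673, against 0 and 0 kb in CHLA10, but its A673 peaks lay at opposite ends of the gene, 7.9 kb apart, with 1 library at each. GBX1, a spinal cord gene, had 0.55 and 0.88 kb, against 0 and 0 kb. NKX6-1, a gene of pancreatic beta cells and motor neuron progenitors, had 0 and 0 kb in A673, against 2.38 and 1.99 kb in CHLA10, and its H3K4me3 covered 3.43 and 3.27 kb in A673, against 5.52 and 5.71 kb in CHLA10. LHX9, a gene of gonad and limb, had 0.21 and 0 kb in A673, against 1.49 and 1.23 kb in CHLA10, and its H3K27me3 covered all 25.0 kb of its region in both A673 libraries, against 2.26 and 0 kb in CHLA10. At GBX1 and LHX9 the H3K27ac peaks lay away from a start. DLX1, a gene of forebrain interneurons and jaw, was the fifth member with H3K27ac in both CHLA10 libraries, with 0 and 0.70 kb in A673, against 0.48 and 0.48 kb in CHLA10.

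H3K4me1 was called in both A673 libraries at 9 members (15.5%; all genes 9.59%), and in both CHLA10 libraries at NKX2-1 alone (1.72%; all genes 1.11%). The 8 in A673 only (13.8%; all genes 7.69%) are NKX2-4, HMX3, EN1, DLX2, BARHL1, LHX1, LHX3 and LHX4; none was in CHLA10 only (all genes 0.26%). The A673 H3K4me1 lists covered 74.5 and 51.6 Mb, against 9.63 and 11.3 Mb in CHLA10, and the part of this gap in the members' counts was not tested.

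The remaining members were accounted for as follows. H3K4me3 without H3K27me3 was found in both lines at 7 (12.1%; all genes 54.1%): the beta cell gene NKX6-1, DLX1 and DLX2, the eye genes VAX1 and VAX2, and IRX3 and IRX5. DLX2, which lies 9.76 kb from DLX1, had its whole 5.46-kb region under H3K4me3 in A673, against 2.33 and 2.58 kb in CHLA10. H3K27me3 without H3K4me3 was found in both lines at 2 (3.45%; all genes 3.09%): DBX1, a gene of spinal interneurons, and LHX3, a gene of pituitary and motor neurons. DBX1 had all 6.32 kb of its region covered in both A673 libraries, against 5.40 and 6.32 kb in CHLA10. Neither mark was called in either line at 3 (5.17%; all genes 19.6%), TLX2, LBX2 and CDX1, although LBX2 had H3K4me3 within 1 kb of a start in 0 of 2 A673 libraries and in 2 of 2 CHLA10 libraries.

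In 5 members that were bivalent in A673 the CHLA10 libraries disagreed: HMX2, GBX2, SIX6, the pancreas gene PDX1 and the intestinal gene CDX2. PDX1 had all 8.31 kb of its region under H3K27me3 in both A673 libraries, against 7.97 and 3.25 kb in CHLA10, and CDX2 had 10.4 and 10.4 kb in A673, against 0 and 3.24 kb in CHLA10. With GSX1 they form one cluster on chromosome 13, a chromosome on which H3K27me3 was called at 12.4 and 14.5% of genes in A673, against 3.85 and 4.44% in CHLA10, while all genes gave 12.8 and 15.2% in A673, against 13.2 and 13.3% in CHLA10. The part of that chromosome-wide difference in the calls at GSX1, PDX1 and CDX2 was not tested.

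Other members were split in at least 1 line. TLX3, LHX8 and LHX9 had H3K27me3 only in A673 and were split in CHLA10. SIX2, of nephron progenitors, and SIX3, of forebrain and eye, had H3K4me3 only in A673 and a further H3K27me3 call in 1 CHLA10 library each. Split in A673 were HMX1 and LHX5, which had H3K27me3 only in CHLA10, and NKX2-3, MSX1 and DLX3, which had H3K4me3 only in CHLA10. NKX3-2, a gene of vertebrae and cartilage, had H3K4me3 at a boundary in 1 A673 library and in no CHLA10 library, but within 1 kb of a start in all 4. NKX6-2 and LMX1A were split in both lines. LHX8 and LHX9 likewise had H3K4me3 within 1 kb of an inner start, in 1 library of each line and in all 4 libraries.

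HOXD13 peaks lay near fewer of these genes than of genes at large. A peak lay inside the gene or within 100 kb of it for 13 members in A673 (22.4%; all genes 38.8%) and for 2 in CHLA10 (3.45%; all genes 11.6%). Members stand in sparser surroundings, with a median of 1 coding neighbour within 100 kb against 4 for all genes, and they are shorter, and the part of this in the counts was not tested. With 1 HOXD13 library per line there is no replicate check, and the CHLA10 list is shorter, with 2099 peaks against 7160 in A673.

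The A673 members with HOXD13 nearby are BARHL2, BARX2, DLX1, DLX2, GBX2, GSX2, LHX2, LMX1A, MSX2, NKX2-8, NKX3-2, NKX6-2 and VAX1, with 26 peaks between them, of which DLX1 and DLX2 share 3. A member was the nearest coding gene for 9 of the 26. GBX2 had the strongest, at 74.1 kb and inside AGAP1 (−log10 q 59.2) and at 11.6 kb with GBX2 as the nearest gene (−log10 q 55.6). MSX2 had a peak at 8.82 kb (−log10 q 20.3), also its nearest gene. LHX2 had one at 95.3 kb (−log10 q 33.9) and BARHL2 one at 97.8 kb (−log10 q 25.9). DLX1 and DLX2 shared a peak inside METAP1D, 13.6 and 27.5 kb away (−log10 q 30.4). The strongest near 5 further members were below these. BARX2 had one at 50.8 kb (−log10 q 13.9), nearest to ARHGAP32, and one at 91.5 kb (−log10 q 12.7). NKX2-8 had one at 82.3 kb inside PAX9 (−log10 q 11.4), and GSX2 one at 33.5 kb inside CHIC2 (−log10 q 10.9). NKX3-2 had one at 46.7 kb (−log10 q 7.01), nearest to RAB28, and NKX6-2 one at 82.3 kb inside INPP5A (−log10 q 2.62).

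A peak lay inside the gene in 2 cases. LMX1A, a gene of roof plate and dopamine neurons, held one (−log10 q 28.5) that lay under H3K27me3 in both A673 libraries, the only one of the 26 to do so. VAX1 held one (−log10 q 8.04) under H3K4me3 and H3K27ac in both A673 libraries, and had a stronger one at 35.9 kb (−log10 q 30.97) under H3K27ac and H3K4me1 in both. H3K27ac was present in both libraries at 5 of the 26 peaks, H3K4me1 at 7 and H3K4me3 at 3, and 7 had none of the 4 marks in any library. The peaks with H3K27ac lay mostly near VAX1, and those with H3K4me3 inside PAX9 and VAX1. The same shares over all A673 HOXD13 peaks were not computed, so these counts describe the list only.

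By state, 5 of the 13 A673 members with HOXD13 nearby were bivalent, 5 had H3K4me3 only and 3 were split. None of the 6 members with H3K27me3 only and none of the 5 with neither mark had a peak nearby. Over all genes, 349 of the 1124 with H3K27me3 only and 1682 of the 5106 with neither mark had one. Over all genes, H3K4me3 alone was found at 62.4% of those with HOXD13 nearby and at 53.6% of those without, and bivalent chromatin at 5.95% and 5.41%. With 13 members these counts describe the list and compare nothing further.

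In CHLA10 the 2 members were MNX1 and NKX3-2. The MNX1 peak lay 97.1 kb away with LMBR1 as its nearest gene (−log10 q 87.5), and no histone mark overlapped it. NKX3-2 had peaks at 61.8 kb (−log10 q 26.7) and 92.5 kb (−log10 q 9.24), both under H3K27ac in both CHLA10 libraries. The second overlapped the A673 peak at 92.3 kb (−log10 q 4.93), which carried no histone mark in A673, and it was the only HOXD13 peak near a member that both lines shared.

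**Figure D5:**
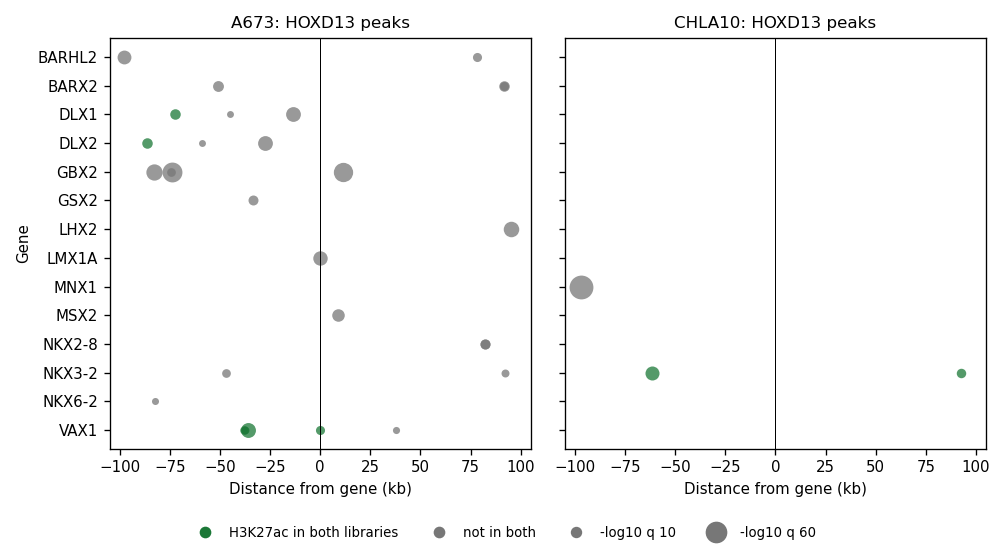
HOXD13 peaks by distance from the gene in kb (horizontal axis, negative before the gene's lower coordinate, 0 inside the gene) for each member with a peak within 100 kb (rows), in A673 (left) and CHLA10 (right); point area grows with the authors' −log10 q and green marks H3K27ac in both libraries of the same line. Peaks near GBX2 are the largest in A673, and CHLA10 has 3 peaks near 2 genes.

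Set beside related lists, the bivalent share of the members was above that of the 68 other homeobox genes outside the HOX clusters, of which 16 were bivalent in A673 (23.5%) and 10 in CHLA10 (14.7%). Of the 39 HOX cluster genes, 9 were bivalent in A673 (23.1%) and 3 in CHLA10 (7.69%). The members had been named in view of such calls, so the order of these shares is a description. Of 38 genes that encode Polycomb and trithorax proteins, the machinery behind both marks, 35 had H3K4me3 in both A673 libraries (92.1%; all genes 64.3%) and 35 in both CHLA10 libraries (92.1%; all genes 63.9%).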

How the data were processed

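The authors deposited 1 peak list for each of 18 libraries, called per sample and not on pooled replicates; the 4 IgG libraries were not analysed here. The submitters' processing notes list Bowtie2, MACS2, SEACR 1.2, bedtools and hg38 and give no roles. In the deposited lists each peak has a fold enrichment (a ratio over the caller's background), a −log10 p, a −log10 q and a score, which equals 10 times the −log10 q without its decimals. All deposited q-values were at most 0.01. The peak names place the calls against IgG, except H3K27me3, which was called as broad peaks of at least 2000 bp. Peak numbers in the deposited names skip values, which makes each list part of a longer one, cut down by a criterion that is not given in the sources used here, and list lengths carry any difference in it. Enrichment and q were used only to rank peaks within a list.

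Gene boundaries came from RefSeq (GRCh38.p14) without exons, and transcription starts from its promoter table for 42 members. Of the members, 24 share their region with another annotated gene, and the 58 lie in 49 loci when neighbours within 200 kb are merged. Overlaps were computed in Python 3.11.15 and plotted with matplotlib 3.10.9, and the interval look-up was tested on simulated data. The members and lists were chosen with earlier results of these data known. The text names every member, and gives values for those marked in 1 line only for H3K4me3, H3K27me3 or H3K27ac, those with H3K27ac in both libraries of a line and those near HOXD13. Alternatives were the upper 50% of each list by q, an overlap of at least 500 bp, starts in place of boundaries, each replicate left out, and HOXD13 within 10 kb or by nearest gene. H3K4me1 was given the same alternatives after seeing the data.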

Additional observations from a re-analysis of the deposited data

How the results depend on the processing

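Of the alternative values, 92 stayed within 1.5 times the reported count and 44 did not. When only the upper 50% of peaks by q in every list were kept, 8 members were bivalent in A673 and 3 in CHLA10, and 25 had H3K27me3 and no H3K4me3 in A673 and 23 in CHLA10. By construction this setting removes lower-ranked peaks, and the members' H3K4me3 peaks rank low. The same setting gave 2 members with H3K27ac in A673, 11 with H3K27me3 in A673 only, 4 with H3K4me3 in CHLA10 only, 1 with H3K27ac in A673 only, and 8 near HOXD13 in A673. With at least 500 bp of overlap, 9 members were bivalent in CHLA10, 10 had H3K27me3 and no H3K4me3 in A673, 1 had H3K27ac in A673, 0 had H3K27ac in A673 only and 3 had H3K4me3 in CHLA10 only. At starts alone, over 42 members, 19 were bivalent in A673 (21 at both boundaries of these 42) and 10 in CHLA10 (11). In the same setting, H3K27me3 and no H3K4me3 in A673 gave 3 (6 at both boundaries). H3K27ac gave 1 in A673 (4) and 3 in CHLA10 (5), H3K27ac in A673 only gave 0 (2), and H3K4me3 in CHLA10 only gave 2 (1). HOXD13 within 10 kb gave 3 members in A673 (all genes 15.1%) and 0 in CHLA10 (all genes 4.53%), and by nearest gene 7 (17.3%) and 0 (5.54%).

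Leaving out 1 library in turn gave 28 to 32 bivalent members in A673 and 16 to 17 in CHLA10. The counts in A673 and CHLA10 were 6 to 7 and 12 to 13 for H3K27me3 and no H3K4me3, 11 to 15 and 16 to 18 for H3K4me3 and no H3K27me3, and 8 to 10 and 5 to 7 for H3K27ac. With replicate 1, or replicate 2, of both H3K4me3 and H3K27me3 left out together, an alternative chosen after seeing the data, the bivalent counts were 29 to 33 in A673 and 18 to 19 in CHLA10. With 1 library left out in turn, H3K27me3 was called in A673 only at 7 to 11 and in CHLA10 only at 4 to 5. In that order, H3K4me3 gave 7 to 9 and 1 to 2, and H3K27ac gave 2 to 6 and 2 to 3. Without CHLA10 H3K27me3 replicate 1, H3K27me3 in A673 only reached 11. Without CHLA10 H3K4me3 replicate 2, H3K4me3 in CHLA10 only reached 2. Without either A673 H3K27ac library, H3K27ac in A673 only reached 6. H3K4me1 in both A673 libraries, 9 members, became 19 without replicate 2, 5 with the upper 50% of peaks, 3 with at least 500 bp and 4 at starts (7 at both boundaries of the same 42).

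No paired analysis was possible because the counts come from no fitted test and the labels tie no replicate of one line to a replicate of the other.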
